A study of Cordyceps militaris with 6 samples.

Results

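RNA editing changes single bases of a transcript after it is made. In animals, adenosine deaminases acting on RNA turn adenosine into inosine, which sequencing reads as guanosine, so that A-to-G changes on the coding strand mark this kind of editing. Filamentous ascomycetes such as Fusarium and Neurospora are known for A-to-I editing in their sexual fruiting bodies, including UAG stop codons read as UGG tryptophan codons, although they lack the animal enzyme; in plant organelles, pentatricopeptide repeat proteins direct C-to-U editing. The results below concern 599 coding positions that the authors listed as RNA editing events in mycelium of Cordyceps militaris, an ascomycete cultivated as a source of cordycepin. They are the positions of the authors' table that lie outside 3 stretches of the genome in which later libraries carry 2 alleles side by side, on scaffolds NW_006271973.1, NW_006271974.1 and NW_006271975.1, which span 528345, 410044 and 773960 bases. The whole table held 3486 positions, of which 2887 lay inside these stretches.

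The libraries came from the YCC strain, carried through serial subculture to follow strain degeneration. There were 6 libraries of poly(A)-selected RNA, 1 for each of passages 1 to 6, all from mycelium grown for 72 h in the dark, and no fruiting body was sampled. There were no replicate libraries, so no difference between passages has a test, and shares are given with 95% Wilson intervals that cover counting error only. Total expected counts ran from 9740171 to 13813999 per library. No DNA reads were used here, so an RNA change and a mixture of 2 DNA alleles cannot be told apart at any position below.

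The 599 positions gave 1250 events, an event being 1 position in 1 library, in 384 genes on 10 scaffolds. Of these genes, 289 held 1 position and 40 held at least 3. All 599 were in coding exons, 290 of them in genes on the plus strand and 309 on the minus strand, and the listed substitution equalled the change on the coding strand at each. The frequency of an event is the share of its reads with the alternative base. It had a median of 0.532 and an interquartile range of 0.258 to 0.750, and the median event rested on 28 reads (range 5 to 3240).

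The authors' editing list could be rebuilt from their variant table. Every coding single nucleotide variant with at least 2 reference reads, at least 3 alternative reads and an alternative share from 0.1 to 0.9 in a library was listed, and nothing else was: all 11304 events were found this way among 470202 combinations of variant and library, with none left over. A further 1858 combinations lay in the same frequency window with fewer reads. The members were thus chosen by their read numbers and alternative shares, and the frequencies below describe them and are not findings. CCM_06164 in passage 1 lay just inside the frequency floor at 0.1002 (56 alternative reads), and CCM_09458 in passage 2 lay just outside it at 0.0878 (13 alternative reads).

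All 12 kinds of substitution occurred. T-to-C was the most frequent with 142 positions (23.7%, interval 20.5 to 27.3), followed by C-to-T with 120 (20.03%), A-to-G with 80 (13.4%, interval 10.9 to 16.3) and G-to-A with 72 (12.02%). Transitions made up 69.1% (interval 65.3 to 72.7). Among 71194 coding variants outside the stretches that were never listed, transitions made up 69.5%, T-to-C 20.7%, C-to-T 20.2% and A-to-G 14.4%. Those variants carried mostly the alternative base. Over all coding variants outside the stretches, with at least 20 reads, the authors' genotype code gave alternative in 244803 cases and reference in 585. Inside the stretches, A-to-G made up 11.8% and T-to-C 15.7% of positions. The A-to-G share of the 599 positions, the kind that A-to-I editing gives, had an interval that held the shares of both other sets.

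The state of a position in the libraries that did not list it split the 599 into classes, a division chosen after the values had been seen. With at least 5 reads, 239 positions (39.9%) showed the reference base elsewhere, 249 (41.6%) showed the alternative base elsewhere, 36 showed the reference base in some libraries and the alternative in others, and 75 showed neither. The last class includes the 30 positions listed in all 6 libraries. Where the other libraries had the reference base, the median event frequency was 0.250, and where they had the alternative base it was 0.778. In the latter class, the alternative base made up most reads of the median event as well as nearly all reads of the other libraries.

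**Figure D1:**
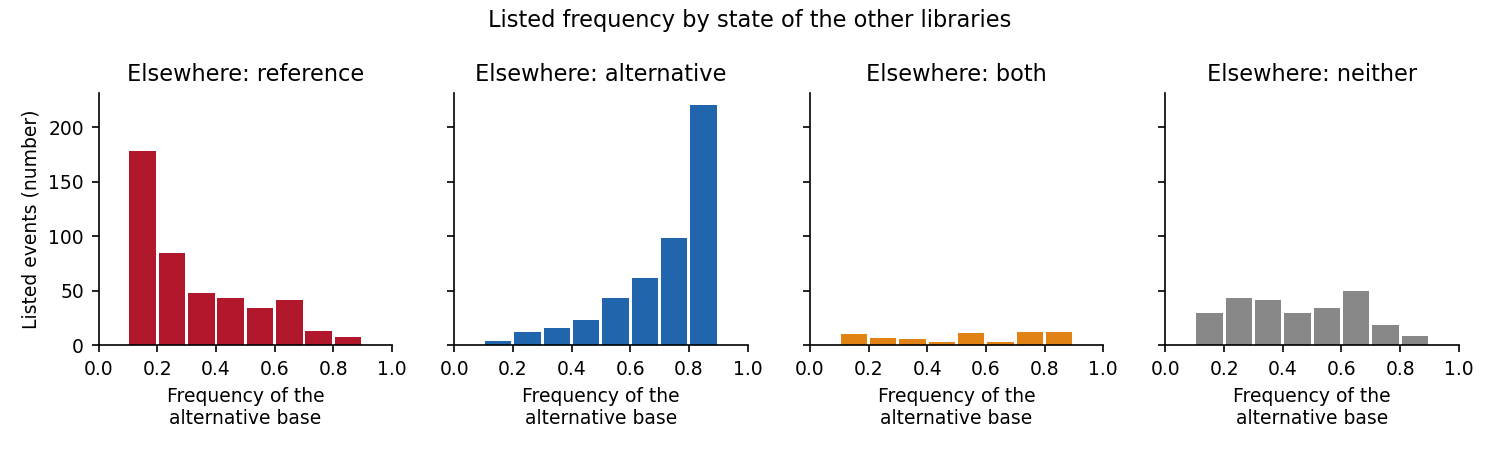
Number of listed events by frequency of the alternative base (share of reads, bins of 0.1), in 4 panels by the state of the libraries that did not list the position. Events at positions that are reference elsewhere peak in the lowest bin (178 of 451 events), and those at positions that are alternative elsewhere peak in the highest (220 of 478 events).

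Positions also differed in how they lay along the genome. A total of 140 lay in 3 dense runs, each of at least 10 positions with gaps of at most 20 kb, and 459 were scattered; the runs, too, were defined after the positions had been seen. One run of 22 positions in 4 genes (NW_006271974.1:1601288-1609714) began 3371 bases past a stretch, and another of 10 positions in 2 genes (NW_006271975.1:2100230-2102757) began 2219 bases past one. The longest run held 108 positions in 19 genes (NW_006271975.1:2554411-2649902) and lay 456400 bases from the nearest stretch. In the runs, 115 of 140 positions were synonymous (82.1%, interval 74.97 to 87.6).

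Most of the difference in events between libraries lay in the 3 runs. Passages 1 to 6 listed 154, 228, 168, 230, 213 and 257 events. In the runs the numbers were 1, 72, 31, 90, 84 and 110, low in passage 1 and passage 3. The scattered positions gave 153, 156, 137, 140, 129 and 147 events, a narrower range in which passage 1 was not low. Passage 1 also had the fewest total counts, and per 1000000 expected counts its scattered events were the most numerous, 15.7 against 10.5 to 12.5 in the others. Depth and passage cannot be told apart for that difference.

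**Figure D2:**
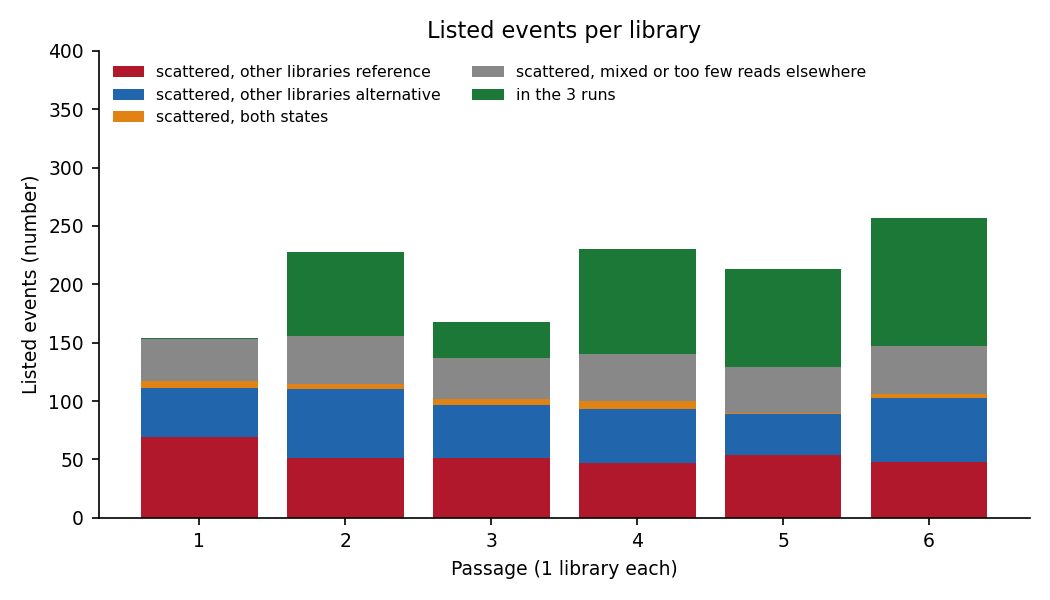
Listed events (number) in each library by passage, stacked by class. The events in the 3 runs go from 1 in passage 1 to 110 in passage 6, while the scattered events stay between 129 and 156.

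The medians in this paragraph cover listed positions only and leave out the variants never listed in the same spans. Inside the longest run, passage 1 carried a pure base at 83 of 108 positions, the alternative one at 53 and the reference one at 30. The share of reads without the passage 1 base then had medians of 0.115, 0.0396, 0.145, 0.156 and 0.260 in passages 2 to 6. The run of 22 positions showed 0.246, 0.056, 0.652, 0.418 and 0.725 for the same passages. Those values lie close to the medians of the stretch that it follows on the same scaffold, which were 0.317, 0.0896, 0.648, 0.429 and 0.744. The run of 10 positions showed 0.334, 0.20, 0.902, 0.744 and 0.974, above the medians of its neighbouring stretch in each passage, which were 0.304, 0.0862, 0.648, 0.418 and 0.759. By these medians, in all 3 runs and in both stretches passage 3 was lowest and passage 6 highest, and the longest run stood lower than either stretch in each passage. At the scattered positions with a pure base in passage 1, the median was 0 in each later passage.

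**Figure D3:**
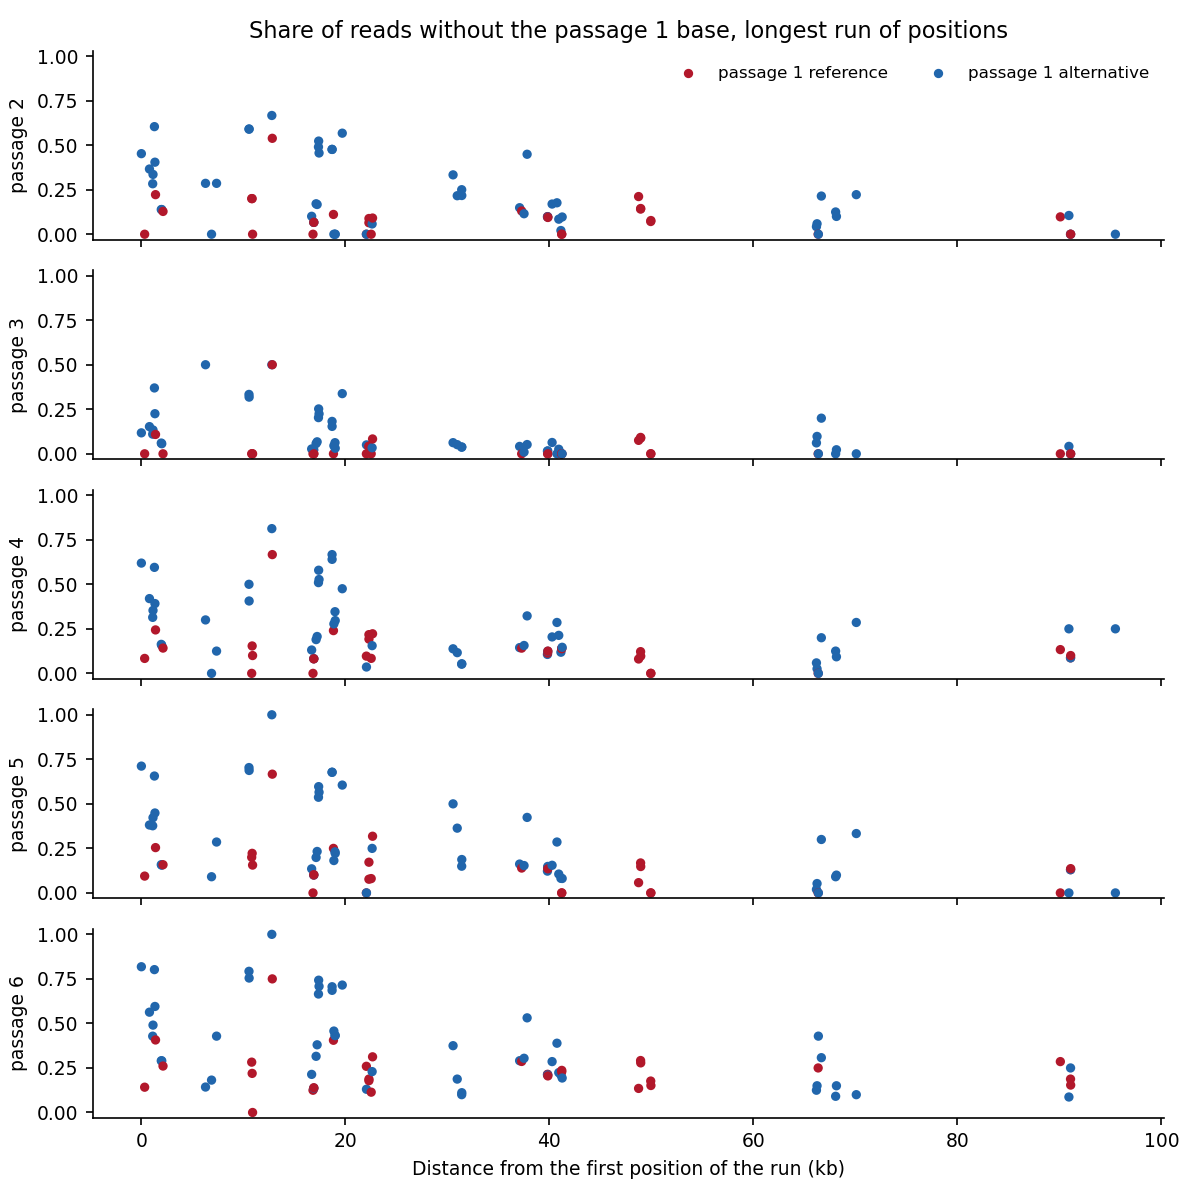
Share of reads without the passage 1 base (y axis, 0 to 1) against distance from the first position of the longest run (x axis, kb), 1 panel for each of passages 2 to 6. Points are listed positions with at least 5 reads, coloured by the passage 1 base. The median is lowest in passage 3 (0.0396) and highest in passage 6 (0.260), but single genes depart from this order: the median of CCM_09032 is 0.276 in passage 5 and 0.149 in passage 6.

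The gene with the most positions was CCM_09023, annotated peroxidase/catalase 2, an enzyme class that breaks down hydrogen peroxide; it held 12 positions in the longest run. The sites given for this and the next genes are examples, picked after their values had been seen. At its C1623T change (A541A) passage 1 had 0 reference and 291 alternative reads. The alternative base made up 0.634, 0.847, 0.580, 0.619 and 0.437 of reads in passages 2 to 6. At C1029T (N343N) passage 1 was pure reference with 304 reads, and the alternative base made up 0.222, 0.109, 0.244, 0.254 and 0.407 in the later passages. The alternative share was lower than in passage 1 at the first site and higher at the second, and at both passage 3 was nearest to passage 1 and passage 6 farthest. The gene was highly expressed, at 331.21 to 537.11 FPKM (fragments per kilobase, scaled to library size).

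Other genes rich in positions lay in the runs as well. CCM_09043, with a protein kinase-like domain, held 11 positions. CCM_09028, a succinyl-CoA ligase of the tricarboxylic acid cycle, held 10, none of them nonsynonymous. At its T1056C change (T352T) the alternative share was 0.980 in passage 1 and 0.477, 0.748, 0.421, 0.403 and 0.257 in passages 2 to 6. CCM_07770, annotated activator 1 37 kDa subunit (activator 1 is replication factor C, which loads the sliding clamp onto DNA), and CCM_07768, a transcription factor, held 9 each in the run of 22 positions. At A495G of CCM_07770 (A165A) the alternative share was 0 in passage 1 and 0.360, 0.172, 0.697, 0.606 and 0.805 later. CCM_09031, an alcohol dehydrogenase, held 8 positions, and it listed none in passages 1 to 3 and all 8 in passage 6. The listing limits shape this contrast. At its positions with a pure base in passage 1, the share without that base reached 0.0909 in passage 2 and 0.0833 in passage 3. In passage 6 the same share went as low as 0.114.

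A change present in part of the RNA of a library, at a base that is otherwise reference, was sought among the scattered positions with the reference base elsewhere, 184 in all. This subset was chosen after the values had been seen. T-to-C made up 74 of them (40.2%, interval 33.4 to 47.4), A-to-G 29 (15.8%, interval 11.2 to 21.7) and C-to-T 16 (8.70%). The share of T-to-C was 19.7% (interval 15.2 to 25.1) among the positions with the alternative base elsewhere and 20.7% among variants never listed. It was 41.0% in genes on the plus strand and 39.6% in genes on the minus strand, both read on the coding strand. By library, it was 42.0%, 23.5%, 35.3%, 21.3%, 31.5% and 52.1% of these events in passages 1 to 6.

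**Figure D4:**
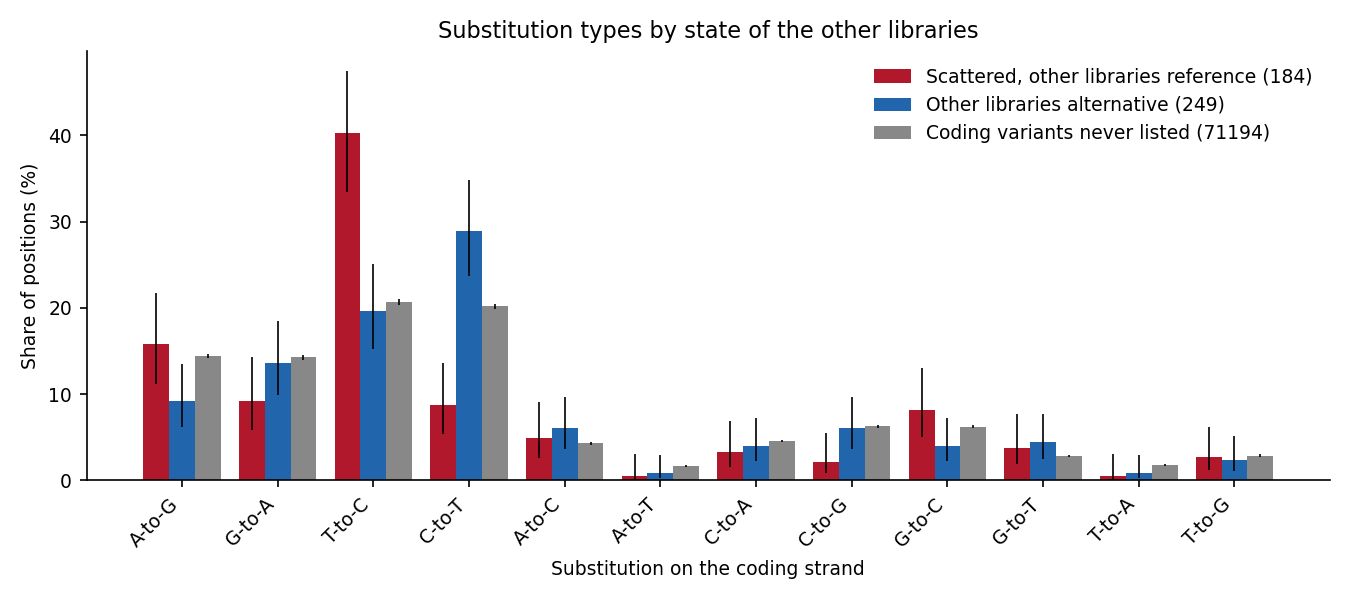
Share of positions (%) by substitution on the coding strand, with 95% Wilson intervals as error bars, for 184 scattered positions with the reference base elsewhere, 249 positions with the alternative base elsewhere and 71194 coding variants never listed. T-to-C stands at 40.2% in the first set and at 19.7% and 20.7% in the others, and A-to-G stands at 15.8%, 9.24% and 14.4%.

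These 74 T-to-C positions had low frequencies, with a median of 0.150, and 53 of them were listed in 1 library. Of them, 51 were nonsynonymous, with 19 leucine-to-proline, 16 serine-to-proline, 9 valine-to-alanine and 4 tryptophan-to-arginine changes. Synonymous changes made up 31.1% of them (interval 21.7 to 42.3) and 86.5% of the 14723 T-to-C variants never listed. Variants never listed carry mostly the alternative base, so they are an unlike set here, and what sets this gap was not tested. Where the amino acid change fixes the neighbouring base, C stood before the T at 28 of 50 positions (56.0%, interval 42.3 to 68.8) and T at 2 of 50. Of these 28, 19 were the 19 leucine-to-proline changes, whose codons require a C there, so this share largely restates them. Among variants never listed, C stood before the T in 22.7% and T in 28.5%. After the T, C stood at 16 of 21 positions (76.2%), against 20.2% of variants never listed. These 16 were the 16 serine-to-proline changes, whose codons require a C there, so this share restates them. The neighbouring bases come from the genetic code and not from a genome, so they are known only for part of the positions and depend on the amino acid changes, and this reading was chosen after the values had been seen.

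The T-to-C positions that follow are examples, picked after their values had been seen. In CCM_04470, phosphoenolpyruvate carboxykinase, which catalyses an early step of gluconeogenesis, T1000C (S334P) had 61 alternative and 492 reference reads in passage 2. It had 0 alternative reads in the other libraries, where reference reads ran from 140 in passage 3 to 1023 in passage 5. These read numbers did not follow the level of the gene, which had 13983 expected counts in passage 2 and 21816 in passage 3. Whether a 0 here counts every read at that base was not tested. In CCM_04804, a heat shock 70 kDa protein that helps other proteins fold, T728C (V243A) had alternative shares of 0.0867 in passage 1 and 0.101 in passage 2, of which passage 2 was listed, and 0 alternative reads in the later libraries. In CCM_04436, the gene known as cns1 of the cordycepin cluster, T1147C (S383P) had alternative shares of 0.194, 0.116, 0, 0.0909, 0.235 and 0.257 in passages 1 to 6, from 7, 5, 0, 3, 4 and 18 alternative reads.

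The 29 A-to-G positions in this subset had a median frequency of 0.20, and 24 were listed in 1 library. Of these, 19 were nonsynonymous and 8 synonymous, with 6 serine-to-glycine and 4 threonine-to-alanine changes, and the remaining 2 removed a stop codon. Where the codon gives it, G followed the A at 9 of 17 positions (52.9%, interval 31.0 to 73.8) and at 14.9% of A-to-G variants never listed. These 9 were the 6 serine-to-glycine, 1 arginine-to-glycine and 2 stop-loss changes, whose codons require a G there. T preceded the A at 2 of 14 positions (14.3%, interval 4.00 to 39.9), both of them the stop-loss changes, and at 16.5% of variants never listed. These shares restate the amino acid changes and are no separate reading of sequence context.

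Both stop-loss positions changed a TAG stop codon to TGG, tryptophan, and both had low frequencies. In CCM_05796, annotated as a negative regulator of the PHO system, the fungal pathway that responds to phosphate, A983G (X328W, exon 2, NW_006271972.1:2494167) had alternative shares of 0.113, 0.157, 0.127, 0.134 and 0.119 in passages 1 to 5. The alternative reads behind them numbered 18, 92, 62, 65 and 56. Passage 6 had 94 reference reads and 0 alternative reads. In CCM_09458, a hypothetical protein, A1703G (X568W, exon 1, NW_006271977.1:466079) was listed in passage 3 alone, with 19 alternative and 129 reference reads. Passage 2 had 13 and passage 4 had 12 alternative reads, below the frequency floor, and passages 1, 5 and 6 had 0. This second gene was named after its values had been seen. Among variants never listed outside the stretches, 17 removed a stop codon, and 1 of those changed TAG to TGG. Variants never listed carry mostly the alternative base, unlike both stop-loss positions, so they are an unlike set here too.

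The 2 stop-gain positions, also named after their values had been seen, were G-to-T changes. E84X of CCM_04876, an outer membrane protein with a beta-barrel, had 312 alternative and 522 reference reads in passage 3 and 0 alternative reads in all other libraries. It lay 6 bases from another listed position, in a gene with 4 positions within NW_006271971.1:4008914-4008931. Misplaced reads at this cluster were not tested. E441X of CCM_09512, an alcohol dehydrogenase, was listed in passages 2 and 3 at 0.882 and 0.800, and the alternative base made up 0.909 to 1 of reads in the other libraries.

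Most positions were listed in few libraries. Of the 599, 338 (56.4%) were listed in 1 library, 83 in 2, 65 in 3, 44 in 4, 39 in 5 and 30 in 6. Listing understates how often the alternative base was present, since a pure alternative base is not listed: 154 of the 338 positions listed once showed the alternative base elsewhere. Positions with an alternative share of at least 0.1 in at least 3 libraries, with at least 10 reads in each, numbered 304, against 178 listed in at least 3. Libraries that did not list a position often had reads there: 1020 such cases had at least 20. Where the other libraries were reference, the number of alternative reads was exactly 0 in 442 of 541 cases (81.7%). In the opposite class the number of reference reads was exactly 0 in 246 of 420 cases (58.6%). Over all coding variants outside the stretches, members included, such zeros were about equally frequent for both bases at that depth. With at least 20 reads, they made up 89.4% of 585 cases that the authors' genotype code gave as reference and 90.98% of 244803 cases given as alternative. Members alone, counted by the same code, had 89.8% of 480 and 54.1% of 482. Members thus made up most of the 585 reference cases, which are no separate background for them. With at least 100 reads, the shares over all coding variants were 88.1% of 193 and 83.4% of 96634. These zeros need care. Pairs of members next to each other in position and at most 10 bases apart were compared where both had 0 alternative reads and at least 20 reads. The number of reference reads was identical in 30 of 54 cases, and the rest differed by up to 2.49 times. Members not directly next to each other could differ more, as in CCM_07859 in passage 1, described below. No source used here names the variant caller, and whether a 0 counts every read at that base was not tested. The CCM_05796 stop codon in passage 6 is one such 0.

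The 39 positions listed in 5 libraries split by place. All 17 in the runs lacked passage 1. Of the 22 scattered ones, 10 lacked passage 3, 5 lacked passage 6 and 3 lacked passage 1. At 14 of these 22 the missing library was reference, and all 14 had 0 alternative reads there, from 5 to 108 reads (median 32.5).

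The 30 positions listed in all 6 libraries were all scattered and lay in 24 genes. Of these, 13 were nonsynonymous (43.3%, interval 27.4 to 60.8) and 5 were A-to-G. Their mean frequency over the libraries ran from 0.122 to 0.753 with a median of 0.357, and 21 had a mean under 0.5. The range of a position over the 6 libraries had a median of 0.187. No library was regularly highest or lowest: passage 4 was highest at 6 positions and passage 2 at 4, and passages 1, 3 and 6 were each lowest at 7. Another single nucleotide variant lay within 10 bases of 12 of the 30 (40.0%, interval 24.6 to 57.7), against 14.6% of variants never listed. A splice junction boundary lay within 10 bases of 4 (13.3%, interval 5.31 to 29.7), against 2.04%, and an indel within 10 bases of 0.

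**Figure D5:**
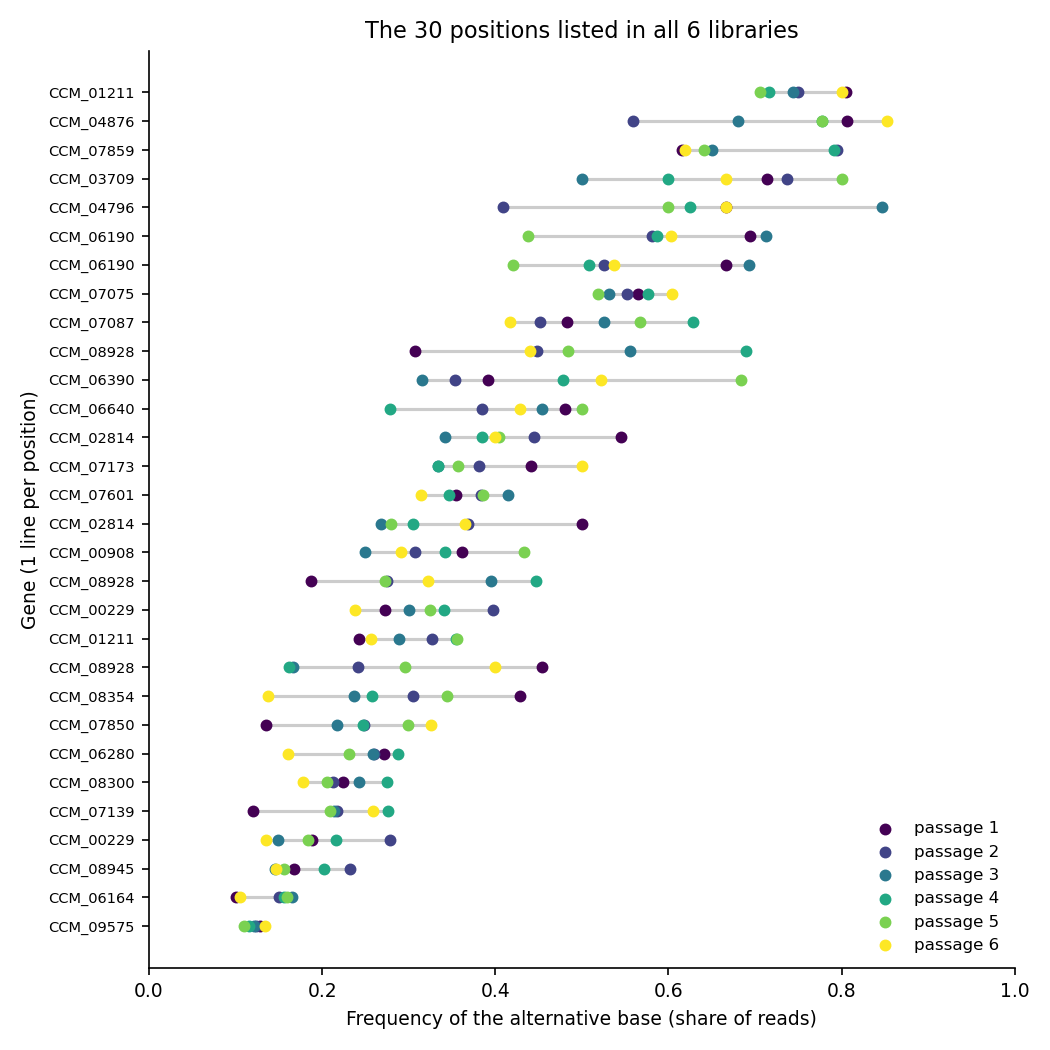
Frequency of the alternative base (share of reads) in each library at the 30 positions listed in all 6 libraries, 1 line per position, labelled by gene and sorted by mean, with colours for passages 1 to 6 and grey lines for the range. The means go from 0.122 in CCM_09575 to 0.753 in CCM_01211, and the colours have no fixed order.

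The highest mean belonged to CCM_01211, a member of the glyoxalase family, whose enzymes detoxify methylglyoxal. Its G912A change (P304P) had frequencies of 0.805, 0.750, 0.744, 0.716, 0.706 and 0.800 in passages 1 to 6. A second position 6 bases away, C918A (A306A), had 0.243, 0.327, 0.289, 0.355, 0.356 and 0.256. The 2 positions differed in level in every library, by more than either varied between libraries. In CCM_07859, an L-xylulose reductase of pentose metabolism, G333T (T111T) had 0.616, 0.794, 0.651, 0.791, 0.641 and 0.619. CCM_07075, Pc14g01150, was the steadiest of the 12 highest, with G138A (Q46Q) between 0.519 and 0.604.

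Several of the 12 highest changed the protein. CCM_04796, ARS binding protein 2, had the widest range, with A1444C (N482H) at 0.409 in passage 2 (9 alternative and 13 reference reads) and 0.846 in passage 3 (11 and 2). CCM_06190, a splicing factor with a PWI domain, a fold that binds nucleic acids, carried A671G (D224G) at 0.694, 0.581, 0.713, 0.587, 0.438 and 0.603. The next base, C672T (D224D), had 0.667, 0.526, 0.693, 0.509, 0.421 and 0.537. At both bases passage 3 was highest and passage 5 lowest. In CCM_06390, a protein with BAH and PHD domains, which read chromatin, A3892G (T1298A) ranged from 0.316 in passage 3 to 0.684 in passage 5. CCM_06640, a protein with a domain that prefers A/T-rich DNA, carried T1569G (H523Q) at 0.279 to 0.50. The others of the 12 were synonymous: V94V in CCM_03709, the cell wall protein Ecm33, ranged from 0.500 to 0.800 on few reads (2 to 5 reference reads), L89L in CCM_04876 from 0.559 to 0.853, L602L in CCM_07087 from 0.417 to 0.628, and A669A in CCM_08928, shugoshin, a protector of centromeric cohesion, from 0.308 to 0.690.

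Of all A-to-G positions, 19 were listed in at least 4 libraries, and 8 of these had the highest mean frequency and were named by rule. Of the 8, 3 lay in the runs (E268E in CCM_09028, A165A in CCM_07770 and S92S in CCM_07769, an FCF1 small subunit protein). Their listed frequencies ran from 0.685 to 0.829, from 0.172 to 0.805 and from 0.243 to 0.757. The other 5 were nonsynonymous: D224G and T1298A, described above, N215D in CCM_04952, S91G in CCM_06337, an RNA helicase of splicing, and S85G in CCM_00942, an acyl-CoA N-acyltransferase. N215D rested on 5 to 10 reads in its listing libraries. S91G was listed in all libraries but passage 2, where it had 12 reference and 0 alternative reads, and a C-to-T change at the base before it was listed in the same 5 libraries. S85G was listed in all but passage 3, at 0.333 to 0.600.

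Further A-to-G positions, picked after their values had been seen, were not among the 8. In CCM_06280, hexokinase, the enzyme that phosphorylates glucose, A34G (R12G) had 0.272, 0.260, 0.259, 0.288, 0.232 and 0.161, from 134, 131, 125, 144, 120 and 77 alternative reads. This position lay 6 bases from a splice junction boundary. In CCM_06164, a hypothetical protein, A763G (N255D) had 0.1002, 0.150, 0.166, 0.156, 0.160 and 0.105, from 56 to 91 alternative reads. In CCM_08300, an ankyrin protein, A1548G (G516G) had 0.224, 0.213, 0.242, 0.275, 0.205 and 0.177. The nearest other listed position was 46615 bases or more away from each of the 3.

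Close neighbours were common among the 599. A listed position had another single nucleotide variant within 10 bases in 32.6% of cases (interval 28.9 to 36.4), against 14.6% of variants never listed. An indel lay within 10 bases of 2.17% (against 0.110%), and a splice junction boundary within 10 bases of 5.01% (against 2.04%). There were 35 pairs of positions at most 3 bases apart, 23 of them listed in the same libraries, with a median difference in frequency of 0.0458 between the members of such a pair. That difference ran from 0 to 0.760, and 8 of the 23 pairs were listed in 1 library only. Another 6 pairs shared no library. CCM_07859 held 6 positions within NW_006271974.1:1906139-1906146, of which 5 were listed in 1 library each, a different one for each of passages 1 to 5. Its reference reads in passage 1 were 399 at S114A and D113A and 1767 at A112V and A112S, with 0 alternative reads at all of them. Misplaced reads at such clusters were not tested.

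The coding effect of the 599 positions was synonymous for 374 (62.4%, interval 58.5 to 66.2), nonsynonymous for 221 (36.9%), a stop gain for 2 and a stop loss for 2. Inside the stretches 74.4% were synonymous, and among variants never listed 72.7%. The classes differed: 73.8% of the scattered positions with the alternative base elsewhere were synonymous (interval 67.2 to 79.5), and 36.4% of those with the reference base elsewhere (interval 29.8 to 43.6). In that last class 42.4% fell on the third codon base, against 76.7% of all positions with the alternative base elsewhere and 73.1% of variants never listed. Both of the latter sets carry mostly the alternative base, unlike that class, and the source of the difference was not tested.

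Genes with a listed position were more highly expressed than the median gene. Their median level was 41.8 to 43.6 FPKM in the 6 libraries, against 14.7 to 18.2 FPKM over all 10385 genes. A listing needs reads, so level and listing are tied by construction.

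Genes with products related to editing enzymes were taken from a list of product names that matched 20 genes. It held 11 nucleoside, nucleotide or base deaminases, 8 pentatricopeptide repeat proteins and 1 tRNA-specific adenosine deaminase, and none of the 20 held a listed position. Over all genes 3.70% held one, so a count of 0 among 20 is near the background and says nothing about these genes. Of the 19 with a level above 0 FPKM in any library, 12 were lowest and 3 highest in passage 1, the library with the fewest total counts. The median over all genes was also lowest in passage 1, at 14.7 FPKM against 16.68 to 18.16 FPKM in the others. How many of all genes were lowest in passage 1 was not counted, so the 12 are not read as a trait of these genes. Examples in both directions were picked after their values had been seen. The tRNA-specific adenosine deaminase CCM_03277, of the family that makes inosine in tRNA anticodons, had 9.02 FPKM in passage 1 and 15.19, 16.16, 16.76, 14.37 and 17.97 FPKM in passages 2 to 6. CCM_02911, an adenosine deaminase, which acts on the free nucleoside, had 52.43 FPKM in passage 1 and 19.61 to 23.94 FPKM later. Passage 1 was lowest for the first gene and highest for the second, and with 1 library per passage these differences have no test.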

How the data were processed

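RNA-seq of 6 mycelium libraries, 1 per passage, was analysed from the authors' tables. The tools named, per the submitters' processing notes, are edgeR, Cufflinks, TopHat2, Bowtie and FastQC, without versions. The variant caller and its settings were not given in any source used. The deposited editing table gives each event's frequency as a fraction of reads, per the file headers. The authors' variant table gives a quality score per site, a genotype code and the numbers of reference and alternative reads, deposited for each library. Expression was deposited in FPKM and in expected counts, estimated reads per gene, per the file headers. Another 76 per-sample columns were left unused. RefSeq genes of assembly CmilitarisCM01_v01 held all 384 locus tags and were used for names only; coordinates are those of the deposited tables.

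Events were joined to the variant table by position, and annotated changes gave the substitution on the coding strand. The state of a library that did not list a position needed at least 5 reads: alternative above a share of 0.9, reference below 0.1. Runs were chains with gaps of at most 20 kb and at least 10 positions. Wilson intervals came from SciPy 1.17.1, with pandas 2.3.3 under Python 3.11.15, and the functions were tested on simulated data. Reads without molecular identifiers are not independent molecules. No genome was used, so the planned reading of neighbouring bases was replaced by bases that codon and amino acid change fix. By rule, the text names the 12 positions in 6 libraries with the highest mean frequency, up to 8 stop changes in at least 3 libraries, the 8 A-to-G positions in at least 4 libraries with the highest mean frequency, the 6 genes with most positions and the 5 positions with the widest range; others are marked as picked later. Members, lists and rules were chosen with earlier results of these data known. Alternatives covered frequency and read minimums, neighbours, stretch edges, strand, pseudocount and each library left out.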

Additional observations from a re-analysis of the deposited data

How the results depend on the processing

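Among the substitution types, the T-to-C share moved outside its interval under more alternatives than A-to-G or transitions. T-to-C made up 17.7% at a frequency of at least 0.2, against 20.7% of variants never listed, and 17.4% for positions in at least 3 libraries. It made up 29.1% with at least 20 reads in each listing library, and 17.9% on the plus strand of the scaffold, where A-to-G was 19.2%. The T-to-C share of the 184 scattered positions with the reference base elsewhere was not recomputed at other frequency or read minimums. Transitions made up 62.4% of positions in at least 3 libraries. With each library left out in turn, T-to-C ran from 22.1% to 24.6%, A-to-G from 12.6% to 13.8%, transitions from 67.9% to 69.5%, positions in at least 3 libraries from 136 to 157 and the median frequency from 0.520 to 0.544. Without the runs, an alternative added after seeing the data, the synonymous share was 56.4%, the ratio of passage 6 to passage 1 events 0.961 in place of 1.67, and positions in at least 3 libraries numbered 100 in place of 178. That ratio was 1.19 relative to expected counts. Counting any alternative share of at least 0.1 in at least 10 reads gave 304 positions in at least 3 libraries, since pure alternative positions then count. Median log2(FPKM + 1) of host genes lay 1.32 above all genes, and 0.78 when genes under a mean of 1 FPKM were dropped. The other 58 recomputed values stayed within their interval or within 1.5 times. No paired analysis was possible because each passage had 1 library and no result came from a test. Low depth limits what single positions show: the median event had 28 reads.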
